A study of Rattus norvegicus with 30 samples.

Results

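Transcript signals of 28 genes of blood coagulation and the complement system were followed in rat hepatocytes exposed to beta-naphthoflavone (BNF), out of 14217 genes tested. The genes came from a list of 34 symbols, chosen by pathway with earlier results of these data known. A gene was kept where the array annotation gave it a probe set with that symbol alone. Where it had several, the brightest on average over the 30 arrays (mean of log2 values) stood for the gene. A signal is the linear intensity of 1 probe set, and its level is compared only with the same probe set on other arrays. Kng1, C2 and Cfb, 3 of the 34, were listed only on probe sets shared with another gene and were left out, and F7, F11 and F13b, 3 more, were not analysed here. Of the 28 genes, 15 belong to coagulation, its inhibitors and clot breakdown, and 13 to complement.

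The cells were frozen hepatocytes of male Sprague Dawley rats bought from a supplier, thawed, plated on collagen and overlaid with Matrigel, a basement membrane extract. On day 3 of culture they received BNF at 1 or 100 µM, or 1% dimethyl sulfoxide (DMSO) as the vehicle, and RNA was taken 24 or 48 h later. BNF is a synthetic flavone and a ligand of the aryl hydrocarbon receptor (AhR), a transcription factor that switches on drug-metabolising enzymes such as Cyp1a1. Each of the 6 groups held 5 arrays, each from its own culture well. The labels do not tie wells to animals. Each p therefore reflects variation from well to well, and whether that includes variation between animals is not known. The liver makes most of the plasma proteins of both systems. In coagulation, a chain of serine proteases ends in thrombin, which turns fibrinogen into fibrin, while antithrombin and protein C hold the chain back and plasmin dissolves the clot. Complement is a second protease chain, entered through antibody, sugars on microbes or spontaneous turnover of C3, that ends in a pore of C5 to C9 in the target membrane. Many of these genes are driven in liver by HNF4A and C/EBP factors, and several, fibrinogen and C3 among them, also by interleukin 6 through STAT3.

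At 100 µM BNF the coagulation and complement genes were lower than in vehicle, at both times and in nearly every role. At 24 h, 21 of the 28 fell and 0 rose at an adjusted p of 0.05 in limma, a linear model fitted across all genes, and the same counts were reached at an unadjusted p of 0.05 (21 lower, 0 higher). At 48 h, 22 fell and 0 rose (25 and 0 at an unadjusted p of 0.05). Over all genes tested, 10.4% were called lower and 10.7% higher at 24 h, and 8.62% lower and 8.79% higher at 48 h. Of the 28, 75% and 78.6% were called lower. The list was chosen with earlier results of these data known, so the shares are a description. Of the 28, only 4 lie below the median signal of all genes, and their median spread within a group was smaller than that of all genes. The shares therefore do not compare genes of like signal and spread. The median log2 fold change of the 28 was -0.36 at 24 h and -0.44 at 48 h, beside 0.04 and 0.02 for all genes. The signal of every array at 100 µM lay below every vehicle array for 20 of the 28 at 24 h (background 7.92%) and for 21 at 48 h (6.68%). The called falls ran from 1.18-fold to 2.8-fold at 24 h and from 1.16-fold to 2.8-fold at 48 h, and those of Serpinf2, Klkb1, C8a and Masp1 were among the largest at both times, with that of C4bpa at 48 h. Calls at both times were shared by 20 genes, which is 20 of the 21 at 24 h and 20 of the 22 at 48 h. F5 was called at 24 h alone and Fgb and Fgg at 48 h alone. Serpind1, C5, C6, C9 and Cfd, 5 in all, were called at neither time.

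**Figure D1:**
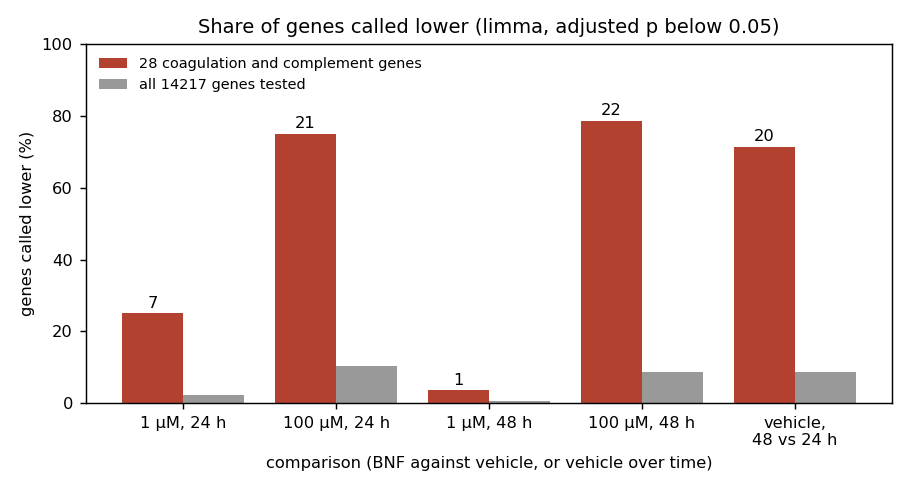
Share of genes called lower (vertical axis, percent; limma, adjusted p below 0.05) for the 28 coagulation and complement genes (red, with the number of genes above each bar) and for all 14217 genes tested (grey), in each dose against vehicle and in vehicle at 48 against 24 h. The red bars stand at 21 and 22 genes for 100 µM, at 7 and 1 for 1 µM, and at 20 for vehicle over time.

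At 1 µM the changes were fewer and mostly at 24 h. F9, F10, Plg, Serpinf2, C8a, Masp2 and Mbl2 fell at 24 h, 7 of 28 (25%; 15 at an unadjusted p of 0.05), with 2.4% of all genes called lower and 1.91% higher. At 48 h F9 fell and C9 rose, 1 gene each way, with 0.521% of all genes called lower and 0.288% higher. The median of the 28 was -0.15 at 24 h and -0.13 at 48 h, beside 0.03 and 0.02 for all genes. Groups did not overlap, with the treated arrays lower, for 7 of the 28 at 24 h (background 2.85%) and for 2 at 48 h (1.07%). The count at 24 h leaned on single arrays. Without replicate 5 of vehicle at 24 h it was 3, and without replicate 4 of 1 µM at 24 h it was 4. At 48 h it was 1 in all without replicate 1 of vehicle or replicate 1 of 1 µM, and 4, with Hrg and Mbl2 added, without replicate 2 of vehicle. The effect of 1 µM did not pass the test of a difference between the times for any of the 28 (0 called in limma, 7 at an unadjusted p of 0.05, with 0.0914% of all genes called).

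Both doses were also compared with each other. At 24 h, 10 of the 28 were lower at 100 than at 1 µM (4.57% of all genes called lower and 3.14% higher), and at 48 h, 20 were (7.39% and 6.57%). The arrays of the doses did not overlap for 7 at 24 h (background 4.27%) and 17 at 48 h (5.85%). The log2 differences of Serpinf2, C4bpa, Masp1 and C8a were -0.81, -0.60, -0.51 and -0.46 at 24 h (adjusted p from 6.79e-06 to 0.0339) and -1.35, -1.15, -0.81 and -0.76 at 48 h (from 2.89e-11 to 0.000306). The 24 h call of Masp1 was lost in 8 of 18 alternative fits: with each array centred (adjusted p = 0.0516), with the mean over probe sets (0.264), with only the groups compared (0.083), without replicate 1, 2 or 3 of 1 µM (up to 0.143) and without replicate 3 or 4 of 100 µM (up to 0.134). These counts depended on scaling: with each array centred on its median they were 5 and 10. Without replicate 4 of 100 µM the count at 24 h was 6. The fall at 100 µM differed between the times for F9 and C4bpa, 2 of 28 (0.408% of all genes called lower), both further down at 48 h. In vehicle alone, between 24 and 48 h, 20 of the 28 fell and C4bpa rose (8.6% of all genes called lower and 8.64% higher), with a median of -0.38 against 0 for all genes. The groups of vehicle arrays did not overlap for 14 of the 28, lower at 48 h (background 6.03%). In bulk RNA such as this, fewer cells of a type and less RNA per cell cannot be told apart.

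**Figure D2:**
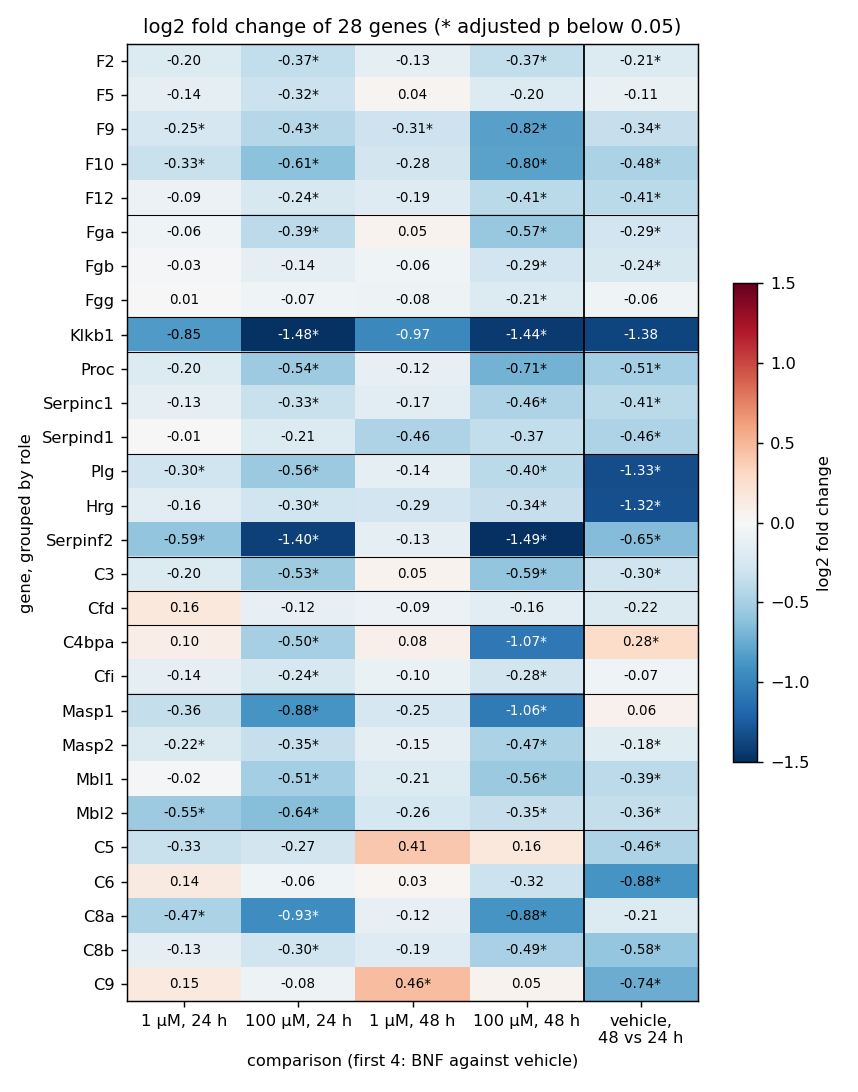
Log2 fold change of each of the 28 genes (rows, grouped by role, with lines between roles) in each dose against vehicle and in vehicle at 48 against 24 h (columns); blue is lower, red is higher, and an asterisk marks an adjusted p below 0.05 in limma. All but C5 and C9 at 48 h are blue in the 100 µM columns, down to -1.49 for Serpinf2 at 48 h, and the last column holds the losses of Plg (-1.33) and Hrg (-1.32) with culture time.

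Promoters are shown for 7 of the 20 genes called lower at 100 µM at both times. These 7 were chosen because their windows hold letters that resemble sites of the factors named above. RefSeq start sites on the build GRCr8 gave 300 bases (250 before and 50 after the start) for 24 of the 28 genes, matched by gene ID. C9, Hrg, Masp2 and Serpind1 are named only. Capitals mark matches, on either strand, to 5 motifs: GCGTG, the core of an AhR element; TTCNNNGAA, bound by STAT factors; TTGCNNAA and its special case TTGCGCAA, bound by C/EBP; and CAAAGTCCA, bound by HNF4. The first 5 promoters are those with the AhR core, and Fga and F9 hold the STAT and C/EBP letters.
Serpinf2, chr10:60778733-60779032, minus strand: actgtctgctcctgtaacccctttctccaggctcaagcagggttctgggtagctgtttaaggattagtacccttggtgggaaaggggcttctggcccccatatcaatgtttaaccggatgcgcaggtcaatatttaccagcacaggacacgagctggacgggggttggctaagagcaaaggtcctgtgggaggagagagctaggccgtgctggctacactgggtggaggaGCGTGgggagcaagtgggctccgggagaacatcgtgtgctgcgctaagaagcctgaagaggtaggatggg
Klkb1, chr16:53690976-53691275, plus strand: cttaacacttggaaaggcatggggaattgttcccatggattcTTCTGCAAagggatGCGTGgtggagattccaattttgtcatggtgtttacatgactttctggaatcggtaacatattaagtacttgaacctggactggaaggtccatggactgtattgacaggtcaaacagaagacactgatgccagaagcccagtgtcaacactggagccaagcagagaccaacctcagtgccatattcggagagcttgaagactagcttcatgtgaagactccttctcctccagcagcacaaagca
Masp1, chr11:90839472-90839771, plus strand: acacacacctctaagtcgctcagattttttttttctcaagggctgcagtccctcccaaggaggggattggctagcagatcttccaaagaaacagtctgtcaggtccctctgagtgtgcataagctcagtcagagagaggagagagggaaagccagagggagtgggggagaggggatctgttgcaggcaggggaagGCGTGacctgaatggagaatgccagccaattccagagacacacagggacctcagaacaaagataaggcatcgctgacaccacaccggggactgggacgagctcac
C4bpa, chr13:44663422-44663721, minus strand: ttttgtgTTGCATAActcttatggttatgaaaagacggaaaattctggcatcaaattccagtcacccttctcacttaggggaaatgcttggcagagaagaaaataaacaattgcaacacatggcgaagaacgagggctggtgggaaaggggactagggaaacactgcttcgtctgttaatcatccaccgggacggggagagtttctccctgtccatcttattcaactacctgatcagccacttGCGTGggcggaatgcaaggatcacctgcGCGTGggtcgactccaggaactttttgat
Mbl2, chr1:237430793-237431092, plus strand: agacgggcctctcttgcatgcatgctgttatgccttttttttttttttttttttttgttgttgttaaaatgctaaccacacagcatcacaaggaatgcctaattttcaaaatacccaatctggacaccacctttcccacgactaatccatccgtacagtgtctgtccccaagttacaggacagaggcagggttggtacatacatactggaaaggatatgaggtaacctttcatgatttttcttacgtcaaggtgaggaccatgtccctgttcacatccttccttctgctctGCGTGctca
Fga, chr2:170671919-170672218, plus strand: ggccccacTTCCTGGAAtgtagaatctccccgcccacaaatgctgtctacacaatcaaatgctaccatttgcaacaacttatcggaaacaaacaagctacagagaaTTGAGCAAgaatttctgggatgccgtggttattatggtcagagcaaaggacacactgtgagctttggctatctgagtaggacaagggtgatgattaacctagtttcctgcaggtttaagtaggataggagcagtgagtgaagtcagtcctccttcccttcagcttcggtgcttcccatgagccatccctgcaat
F9, chrX:143388392-143388691, plus strand: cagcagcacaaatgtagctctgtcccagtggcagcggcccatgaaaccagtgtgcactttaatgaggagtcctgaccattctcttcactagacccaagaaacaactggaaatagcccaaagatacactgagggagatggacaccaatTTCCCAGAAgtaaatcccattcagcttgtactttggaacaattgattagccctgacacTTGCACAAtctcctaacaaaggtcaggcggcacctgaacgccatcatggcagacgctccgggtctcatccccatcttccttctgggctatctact

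GCGTG stood in 5 of the 24 promoters (20.8%), against 31.1% of all 27457 promoters of that length. The genes with it were Klkb1, Serpinf2, C4bpa, Masp1 and Mbl2. Their median log2 fold change at 100 µM was -0.88 at 24 h (from -1.48 to -0.5) and -1.07 at 48 h (-1.49 to -0.35). In the 19 without it the medians were -0.33 (-0.93 to -0.06) and -0.41 (-0.88 to 0.16), and the ranges overlapped. Of the 5 genes, Klkb1 had a wide error, and a second probe set of Mbl2 was not called at 100 µM. The match in Mbl2 lies after the start. The comparison is a description of these windows with no test. TTGCNNAA stood in 10 of the 24 (41.7%, against 10.5% of all promoters), and TTGCGCAA in 0 (0.197%). TTCNNNGAA stood in 4, F9, Fga, Fgb and C8a (16.7%, against 8.68%), and CAAAGTCCA in 0 (0.375%). The medians at 100 µM of genes with the TTGCNNAA letters were -0.41 and -0.58, beside -0.44 and -0.38 in the 14 without them. For the 4 with TTCNNNGAA they were -0.41 and -0.7, beside -0.44 and -0.44 in the 20 without it.

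The procoagulant factors are the proteases and cofactors that build thrombin. At 100 µM all 5 measured fell at 24 h, and 4 of 5 at 48 h, with F5 the exception. F9 is the vitamin K dependent protease whose loss causes haemophilia B, and it was called lower at both doses and both times. In the order of the arrays in each group, the F9 signal at 24 h was 15375, 15851, 15902, 16416 and 18336 in vehicle, 14099.8, 13469, 14246, 12939 and 14008 at 1 µM and 12082, 12946, 12069.5, 10982 and 12874 at 100 µM. At 48 h the F9 values were 12678, 11506, 12977, 12736 and 14831 in vehicle, 9152, 11355, 10611, 10052 and 11000.1 at 1 µM and 7064, 7215, 7496, 7374 and 7521 at 100 µM. No treated F9 array reached a vehicle array at either dose, and at 48 h the 100 µM arrays also lay below all at 1 µM, whereas at 24 h the doses overlapped. At 100 µM F9 fell 1.34-fold at 24 h (log2 fold change -0.43, SE 0.06, adjusted p = 2.24e-06) and 1.76-fold at 48 h (log2 fold change -0.82, SE 0.06, adjusted p = 6.4e-12). At 1 µM the log2 fold changes of F9 were -0.25 at 24 h (adjusted p = 0.0115) and -0.31 at 48 h (adjusted p = 0.00582). The call at 24 h was lost without replicate 5 of vehicle (adjusted p = 0.0506), and that at 48 h with only the groups compared in the fit (0.115). The effect of 100 µM at 48 h minus that at 24 h was -0.39 (log2, SE 0.08, adjusted p = 0.0154), a call that was lost with each array centred on its median (0.338).

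F10, the protease that with F5 makes thrombin, also fell at 100 µM. Its signals at 24 h were 11148, 12407, 9247, 11903 and 11446 in vehicle, 9483, 9535, 8725, 7945 and 8758 at 1 µM and 7712, 8107, 6962, 6872 and 7096 at 100 µM. At 48 h F10 read 8511, 6641, 7871, 7532 and 9721 in vehicle, 5711, 7573, 6304, 6512 and 6862 at 1 µM and 3749, 5466, 4743, 5107 and 4124 at 100 µM. At both times every F10 array at 100 µM lay below every vehicle array, while at 1 µM the groups overlapped with vehicle. The fall of F10 was 1.52-fold at 24 h (log2 fold change -0.61, SE 0.10, adjusted p = 1.62e-05) and 1.74-fold at 48 h (log2 fold change -0.80, SE 0.10, adjusted p = 1.99e-07). The smaller value at 1 µM and 24 h, -0.33 (adjusted p = 0.0432), lost its call in 10 of 18 alternative fits: without replicate 1, 2, 4 or 5 of vehicle, without replicate 3, 4 or 5 of 1 µM (adjusted p up to 0.129), and in 3 other settings. F2, the precursor of thrombin itself, went from 44872 ± 2022 (mean ± SD, n = 5) in vehicle to 34814 ± 2894 at 100 µM and 24 h, and from 38862 ± 4618 to 29936 ± 1826 at 48 h. Its log2 fold changes were -0.37 and -0.37 (adjusted p = 0.000159 and 0.000183), and no F2 array at 100 µM reached a vehicle array. F12, the protease of the contact phase, fell by less at 24 h (-0.24, adjusted p = 0.0188, groups overlapping) than at 48 h (-0.41, adjusted p = 0.000107), a difference between the times that did not pass the test (adjusted p = 0.578). The 24 h call of F12 was lost without replicate 2 or 4 of vehicle or replicate 3 of 100 µM (adjusted p = 0.0513, 0.0934 and 0.0574). F5, a cofactor and not a protease, fell at 24 h (-0.32, adjusted p = 0.00252). At 48 h its value was -0.20 with a 95% interval of -0.36 to -0.04 (adjusted p = 0.0779), and it passed without replicate 4 of vehicle (0.0445), without replicate 5 of 100 µM (0.0198) and with dim genes left out (0.0473).

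Fibrinogen, the clot's building block, is made of 3 chains. Fga fell at both times, whereas Fgb and Fgg were called at 48 h only. Fga at 24 h read 52170.4, 50056, 50041, 51139 and 58737 in vehicle, 50516, 54167, 54529, 45046 and 47898 at 1 µM and 40016, 47121, 44798, 33653 and 36215 at 100 µM. At 48 h Fga read 42045, 37758, 41167, 42354 and 51905 in vehicle, 44996, 51608, 39831, 46069.5 and 40042 at 1 µM and 26332, 30886, 29508, 30094 and 27430.3 at 100 µM. The 100 µM arrays of Fga lay below vehicle at both times, and those at 1 µM overlapped with vehicle. The log2 fold changes of Fga at 100 µM were -0.39 (SE 0.09, adjusted p = 0.00107) and -0.57 (SE 0.09, adjusted p = 7.86e-06). Fgb at 24 h read 69919, 73821, 69872, 74708 and 78434 in vehicle, 74167, 70070.5, 77388, 66266 and 70840.5 at 1 µM and 64030.4, 78113, 68356, 59304 and 65199 at 100 µM. At 48 h Fgb read 63287, 60127, 56307, 59593 and 72739 in vehicle, 61843, 66612, 55234, 61885 and 54454 at 1 µM and 47382, 52004, 52599, 52463 and 49799.5 at 100 µM. For Fgb the 3 groups overlapped at 24 h, and at 48 h only 100 µM stood below the rest. Fgb had a log2 fold change of -0.14 at 24 h (95% interval -0.27 to 0.00, adjusted p = 0.173) and fell at 48 h (-0.29, SE 0.07, adjusted p = 0.00196). With the mean of all Fgb probe sets in place of the brightest, the 48 h call was lost (adjusted p = 0.643), and without replicate 2 of 100 µM the 24 h value passed (0.0343). Fgg at 48 h was 54406 to 71835 at 100 µM against 71401 to 84332 in vehicle, overlapping, with a log2 fold change of -0.21 (adjusted p = 0.0362). That call was lost without replicate 1 of 100 µM (adjusted p = 0.157), without replicate 5 of 100 µM or replicate 1, 2 or 5 of vehicle (up to 0.125), and in 3 other settings. As a description with no test, the log2 difference of Fga and Fgb, set to 0 in vehicle, was -0.25 at 100 µM and 24 h (arrays from -0.36 to -0.12) and -0.28 at 48 h (-0.32 to -0.21). The same difference of Fgb and Fgg was -0.07 and -0.08. The probe sets of Fgb and Fgg, with mean signals of 63604 and 74350.1, are among the brightest of all genes, Fga's reads 42334, and the part of the signal level in these differences was not tested.

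Plasma prekallikrein, encoded by Klkb1, is the protease that frees bradykinin and activates F12 in the contact system. It had the lowest point estimate of the 28 at 100 µM and 24 h, with a wide error. The signals of Klkb1 at 24 h were 1391, 1355, 1277, 1450.0 and 1294 in vehicle, 1239, 741, 764, 599 and 562 at 1 µM and 292, 628, 468, 564 and 545 at 100 µM. At 48 h Klkb1 read 541, 491, 589.5, 315 and 766 in vehicle, 33, 469, 576, 356 and 408 at 1 µM and 269, 51.5, 279, 269 and 251 at 100 µM. Vehicle at 24 h was tightly grouped and above every treated array, while single arrays at 33 (1 µM) and 51.5 (100 µM) stood far below their groups at 48 h. Klkb1 fell 2.8-fold at 24 h (log2 fold change -1.48, SE 0.51, adjusted p = 0.0338) and 2.7-fold at 48 h (log2 fold change -1.44, SE 0.51, adjusted p = 0.0472) at 100 µM. Without replicate 2 of 100 µM at 48 h, the array at 51.5, the value was -0.96 (adjusted p = 0.194). Over 17 alternatives the call was the same in 10 at 24 h and in 6 at 48 h. At 24 h it was lost without replicate 1, 2, 4 or 5 of vehicle or replicate 1 or 3 of 100 µM (adjusted p up to 0.0914), and at 48 h also without replicate 1, 2, 3 or 5 of vehicle or replicate 5 of 100 µM (up to 0.117). A further setting lost the call at 24 h, and several others did at 48 h. Klkb1 lies below the median of all genes, as do Cfd, C5 and C6, 4 members in all.

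Of the natural anticoagulants, Proc and Serpinc1 fell and Serpind1 did not pass the test. Proc encodes protein C, which destroys F5 and F8. At 24 h its signals were 8843, 8075, 8364, 7413 and 8677 in vehicle, 7437, 8244, 7704, 6492 and 6318 at 1 µM and 6129, 5183, 6505, 5226 and 5528 at 100 µM. At 48 h Proc read 6070.4, 4628, 6213, 5851 and 6407 in vehicle, 5709, 5671, 4929, 5504 and 4947 at 1 µM and 3654, 3669, 3336, 3456 and 3564 at 100 µM. All Proc arrays at 100 µM were below vehicle at both times, and 1 µM overlapped with vehicle. Proc fell 1.45-fold at 24 h (log2 fold change -0.54, SE 0.08, adjusted p = 6.14e-06) and 1.64-fold at 48 h (log2 fold change -0.71, SE 0.08, adjusted p = 4.52e-08). Serpinc1 encodes antithrombin, the inhibitor of thrombin and F10. At 24 h it read 23527, 24691, 23745, 25156 and 26348 in vehicle, 22761, 23824, 23540.1, 21336 and 21228 at 1 µM and 19824, 19630.4, 21490.5, 18940.1 and 18639.7 at 100 µM. At 48 h Serpinc1 read 17434, 18144, 18541, 18009 and 21180.0 in vehicle, 16268, 17559, 16791, 17289 and 15029.9 at 1 µM and 13156, 14756, 14804, 11663 and 13737 at 100 µM. These groups did not overlap between vehicle and 100 µM either, with log2 fold changes of -0.33 and -0.46 (SE 0.06, adjusted p = 0.000108 and 8.03e-07). Serpind1, heparin cofactor II, averaged 876 ± 66.5 (SD, n = 5) in the 48 h vehicle wells, 648 ± 132 with 1 µM and 681 ± 90.5 with 100 µM. Both treated groups lay below all vehicle arrays, yet neither passed over all genes (log2 fold changes -0.46 and -0.37, adjusted p = 0.125 and 0.0568). At 100 µM it passed without replicate 4 of 100 µM (0.0439) and with dim genes left out (0.0299).

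Clot breakdown genes fell too. Serpinf2 encodes alpha-2-antiplasmin, the main plasma inhibitor of plasmin. At 24 h Serpinf2 read 3970.1, 4005, 3833, 5434 and 4671 in vehicle, 3655, 2607, 2405, 2761 and 3142 at 1 µM and 1755, 1579, 1755, 1626 and 1537 at 100 µM. At 48 h it read 2881, 2380.3, 3056, 2847 and 2753 in vehicle, 2547, 2483, 2214, 2752 and 2685 at 1 µM and 782, 997, 1039.7, 945 and 1247 at 100 µM. At 24 h the 3 groups were separate in the order of dose. At 48 h the 1 µM arrays overlapped with vehicle and the 100 µM arrays lay below all of both. The fall at 100 µM was 2.64-fold at 24 h (log2 fold change -1.40, SE 0.11, adjusted p = 3.93e-11) and 2.8-fold at 48 h (log2 fold change -1.49, SE 0.11, adjusted p = 7.79e-12). At 1 µM Serpinf2 fell at 24 h (log2 fold change -0.59, SE 0.11, adjusted p = 0.00122) and was at -0.13 at 48 h (95% interval -0.36 to 0.09). The difference of those effects between the times did not pass the test (adjusted p = 0.312). Plg encodes plasminogen, the precursor of plasmin. At 24 h it read 21543, 19401, 17964, 22564 and 22944 in vehicle, 18453, 17184, 16962, 15786 and 16008 at 1 µM and 14441, 14678, 14685, 13415 and 13502 at 100 µM. At 48 h Plg read 8267, 6985, 8689, 7674 and 10030.2 in vehicle, 7922, 8289.9, 7749, 7315 and 6484 at 1 µM and 6355, 6068, 6386, 5939 and 6541 at 100 µM. The largest step of Plg was with time in vehicle, where no array at 48 h came near one at 24 h, and within each time 100 µM lay below vehicle. Plg fell 2.52-fold in vehicle from 24 to 48 h (log2 fold change -1.33, SE 0.08, adjusted p = 8.55e-14) and 1.47-fold and 1.32-fold with 100 µM (adjusted p = 1.31e-06 and 0.000176). Its call at 1 µM and 24 h (-0.30, adjusted p = 0.0156) was lost without replicate 4 or 5 of vehicle or replicate 4 of 1 µM (0.0535, 0.0575 and 0.0523). Hrg, histidine-rich glycoprotein, which binds plasminogen, had the same shape: 4688 ± 284 in vehicle at 24 h and 1876 ± 165 at 48 h (n = 5 each), with 100 µM at 3817 ± 409 and 1479 ± 112. With 100 µM Hrg fell by 0.30 and 0.34 on the log2 scale (adjusted p = 0.00674 and 0.0026).

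**Figure D3:**
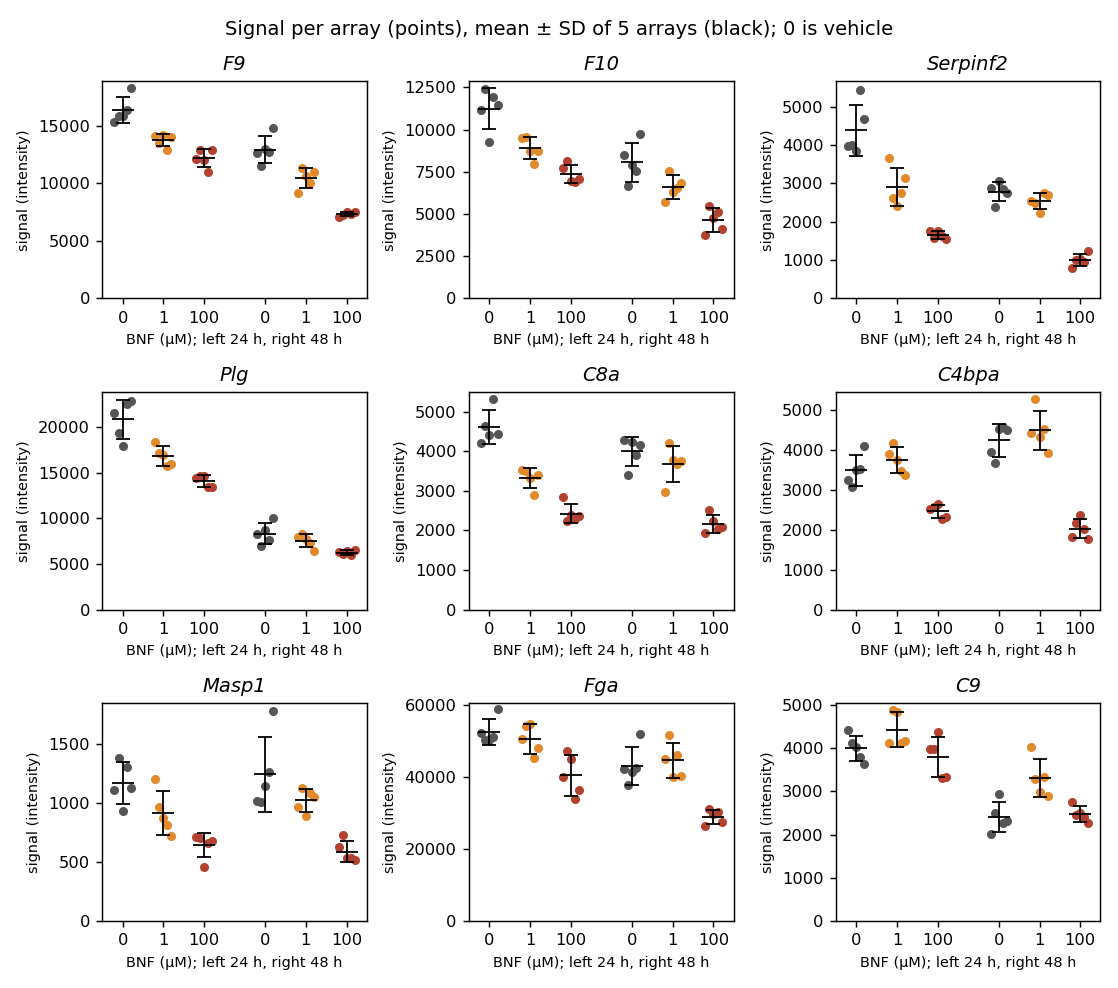
Signal on each array (points; vertical axes start at 0) with the mean and SD of the 5 arrays of each group (black) for 9 of the genes, by BNF dose (0 is vehicle, grey; 1 µM, orange; 100 µM, red), 24 h on the left and 48 h on the right of each panel. Serpinf2, C8a and C4bpa are separated from vehicle at 100 µM, Plg drops between the times in vehicle, and C9 at 48 h is highest at 1 µM.

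Complement is described next. C3, the protein on which all entry routes meet, fell with 100 µM at both times. Its signals at 24 h were 32239, 33096, 28809.6, 35121 and 33169 in vehicle, 29077, 29484, 28276, 27063 and 27326 at 1 µM and 24559.6, 23327, 23769, 19521 and 21409 at 100 µM. At 48 h C3 read 28520.1, 22057, 24435, 24987 and 32537 in vehicle, 25787, 31221, 27343, 26260.1 and 25467 at 1 µM and 14678, 18544, 17517, 17563 and 19252 at 100 µM. Every array at 100 µM was below every vehicle array, and at 48 h the 1 µM arrays were within the vehicle range. The fall of C3 was 1.44-fold (log2 fold change -0.53, SE 0.08, adjusted p = 1.12e-05) and 1.51-fold (log2 fold change -0.59, SE 0.08, adjusted p = 2.32e-06). In the alternative route, Cfd, factor D, which cuts factor B, is known mainly from fat tissue. At 24 h it read 536, 456, 574, 503 and 484 in vehicle, 563, 788, 529.9, 524 and 477 at 1 µM and 512, 588, 458, 364 and 442 at 100 µM, and the groups overlapped. At 48 h Cfd read 396, 309, 447, 499 and 582 in vehicle, 373, 415, 388, 448 and 429.8 at 1 µM and 343, 499, 371, 446 and 319 at 100 µM, again overlapping. Its log2 fold changes at 100 µM were -0.12 (95% interval -0.47 to 0.22) and -0.16 (-0.50 to 0.18).

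The fluid-phase complement inhibitors C4bpa and Cfi both fell at 100 µM. C4bpa is the main chain of C4b-binding protein, which also carries protein S in plasma. C4bpa at 24 h read 3254, 3084, 3505, 3525 and 4111 in vehicle, 3908, 4188, 3755, 3486 and 3380.4 at 1 µM and 2514, 2577, 2643, 2273 and 2334 at 100 µM. At 48 h it read 3945, 3677, 4544, 4589.6 and 4500.2 in vehicle, 4429, 5281, 4329, 4539.6 and 3928 at 1 µM and 1812, 2159.8, 2371, 2033 and 1783 at 100 µM. The arrays at 1 µM overlapped with vehicle, and those at 100 µM lay below both. C4bpa fell 1.41-fold at 24 h (log2 fold change -0.50, SE 0.09, adjusted p = 5.59e-05) and 2.1-fold at 48 h (log2 fold change -1.07, SE 0.09, adjusted p = 5.89e-11). The 2 falls differed by -0.57 (SE 0.12, adjusted p = 0.0148), which did not pass with each array centred on its median (0.153). In vehicle C4bpa rose from 24 to 48 h (0.28, adjusted p = 0.0208), the one member that did. That rise was lost without replicate 1 or 2 of vehicle at 24 h or replicate 3 or 4 at 48 h (adjusted p = 0.0566, 0.0728, 0.0565 and 0.0624) and with centred arrays (0.0699). Cfi, the protease that destroys C3b and C4b, read 36808, 38507, 37301, 38561 and 40261 in vehicle, 36754, 34986, 35156, 32236 and 34142 at 1 µM and 33071, 33891, 33590.1, 29302 and 32018 at 100 µM at 24 h. At 48 h Cfi read 36262, 34793, 33998, 36354 and 41038 in vehicle, 34471, 37145, 32846, 33902 and 32131 at 1 µM and 27029, 31064, 31891, 30021 and 30469.5 at 100 µM. Its groups at 100 µM were separate from vehicle at both times, by a narrow margin. The log2 fold changes of Cfi were -0.24 and -0.28 (SE 0.05, adjusted p = 0.000729 and 0.000192).

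In the lectin pathway, mannose-binding lectins recognise microbial sugars and start the MASP proteases. On the probe sets used, all 4 members fell at 100 µM at both times. Masp1, the protease that activates Masp2, read 1106, 1381, 932, 1306 and 1124 in vehicle, 1204, 966, 868, 814 and 720.1 at 1 µM and 705, 702, 459, 659.6 and 672 at 100 µM at 24 h. At 48 h Masp1 read 1016, 1009.7, 1139, 1259 and 1776 in vehicle, 961, 1125, 887, 1085 and 1046 at 1 µM and 621, 724, 535, 531 and 518 at 100 µM. All arrays at 100 µM stayed under every vehicle array, and 1 µM overlapped with vehicle. Masp1 fell 1.83-fold (log2 fold change -0.88, SE 0.15, adjusted p = 5.9e-05) and 2.09-fold (log2 fold change -1.06, SE 0.15, adjusted p = 4.09e-06). Mbl2 encodes mannose-binding lectin C, and on the probe set used it fell already at 1 µM. At 24 h it read 11173, 13487, 11889, 14944 and 13445 in vehicle, 9810.4, 8611, 8729, 8416 and 8689 at 1 µM and 8638, 8299, 8049.6, 7822 and 8546 at 100 µM. At 48 h Mbl2 read 10271, 8331, 9757, 10544 and 11706 in vehicle, 7100.1, 8938, 8964, 8081 and 8999 at 1 µM and 6795, 8684, 7473, 7667 and 8941 at 100 µM. At 24 h both treated groups were below vehicle and overlapped with each other. At 48 h all 3 groups overlapped. At 24 h the log2 fold changes of Mbl2 were -0.55 at 1 µM (SE 0.08, adjusted p = 0.000108) and -0.64 at 100 µM (SE 0.08, adjusted p = 6.65e-07), and the doses differed by -0.10 (95% interval -0.27 to 0.07). At 48 h only 100 µM was called (-0.35, adjusted p = 0.00237). A second Mbl2 probe set, with a mean signal of 5568, had -0.12 at 1 µM and 24 h and was not called (adjusted p = 0.352). At 100 µM that probe set had -0.13 at 24 h and -0.12 at 48 h and was not called either. Mbl1, mannose-binding lectin A, showed no change at 1 µM that passed the test (-0.02 and -0.21) and fell at 100 µM from 1888 ± 144 to 1325 ± 149 and from 1449 ± 204 to 980.1 ± 92.6 (n = 5 each, adjusted p = 0.00142 and 0.000745). Masp2, the protease that cuts C4 and C2, fell at 100 µM (-0.35 and -0.47, adjusted p = 3.1e-05 and 3.73e-07) and at 1 µM and 24 h (-0.22, adjusted p = 0.0311). The 1 µM call of Masp2 was lost without replicate 1 or 5 of vehicle or replicate 3, 4 or 5 of 1 µM (adjusted p up to 0.117), with no mean-variance trend (0.0571) and with only the groups compared (0.055).

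The terminal genes, whose products form the membrane pore, were divided. C8a and C8b fell at 100 µM at both times, and C5, C6 and C9 did not pass the test there. C8a at 24 h read 4219, 4642, 4418, 5326 and 4445 in vehicle, 3526, 3504, 3333, 2894 and 3406 at 1 µM and 2836, 2247, 2393, 2299 and 2357 at 100 µM. At 48 h C8a read 4275, 3404, 4226, 3913 and 4162 in vehicle, 2965, 4211, 3779, 3680.2 and 3765 at 1 µM and 1945, 2529, 2235, 2045 and 2076 at 100 µM. For C8a the 3 groups at 24 h were separate in the order of dose, and at 48 h only 100 µM was separate. C8a fell 1.9-fold at 100 µM and 24 h (log2 fold change -0.93, SE 0.09, adjusted p = 1.33e-09) and 1.85-fold at 48 h (log2 fold change -0.88, SE 0.09, adjusted p = 2.81e-09), and at 1 µM and 24 h by 0.47 on the log2 scale (adjusted p = 0.00122). C8b at 24 h read 5254, 5431, 4798, 5225 and 5082 in vehicle, 4684, 4459, 5188, 4446 and 4816 at 1 µM and 4039, 4440.0, 4204, 3933 and 4326 at 100 µM. At 48 h C8b read 3323, 3628, 3186, 3762 and 3361 in vehicle, 2722, 3346, 3101, 2975 and 3023 at 1 µM and 2138, 2687, 2541, 2625 and 2289 at 100 µM. Vehicle and 100 µM were separate for C8b at both times, with log2 fold changes of -0.30 and -0.49 (SE 0.06, adjusted p = 0.000555 and 5.01e-07). Within each array, the difference of C8a and C8b relative to vehicle was -0.63 at 100 µM and 24 h (arrays from -0.82 to -0.34) and -0.39 at 48 h (-0.57 to -0.3), a description with no test. C9 gave the only rise, at 1 µM and 48 h, from 2018 to 2946 in vehicle to 2898 to 4031, with overlap (log2 fold change 0.46, SE 0.09, adjusted p = 0.0114). At 100 µM and 48 h it was 2271 to 2757. The call was lost without replicate 1 of vehicle (0.0564), without replicate 1 of 1 µM (0.0536), with centred arrays (0.0578) and with only the groups compared (0.116). C5 had log2 fold changes of -0.27 and 0.16 at 100 µM (95% intervals -0.58 to 0.05 and -0.16 to 0.48), and C6 of -0.06 and -0.32 (-0.32 to 0.20 and -0.58 to -0.05). Without replicate 2 of vehicle at 48 h, C6 passed (-0.43, adjusted p = 0.0134).

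With time in culture, Plg and Hrg fell most in vehicle among the members called. In vehicle from 24 to 48 h, Plg and Hrg fell 2.52-fold and 2.5-fold, C6 1.84-fold (log2 fold change -0.88, SE 0.13, adjusted p = 6e-06), C9 1.67-fold (log2 fold change -0.74, SE 0.09, adjusted p = 6.36e-07) and C8b 1.5-fold (adjusted p = 3.97e-08). Serpind1, C5, C6 and C9 fell with time and did not pass at 100 µM. The other members called lower over time were also called lower at 100 µM and 48 h. These were F2, F9, F10, F12, Fga, Fgb, Plg, Proc, Hrg, Serpinc1, Serpinf2, C3, C8b, Masp2, Mbl1 and Mbl2. Masp1, C8a, Cfi, Fgg and F5 fell at 100 µM at one time or both, and in vehicle over time their values were 0.06, -0.21, -0.07, -0.06 and -0.11, none of which passed the test (0 in limma; 1 at an unadjusted p of 0.05, C8a). Klkb1 and Cfd also did not pass over time (-1.38 and -0.22, adjusted p = 0.059 and 0.438). These comparisons share the 24 and 48 h vehicle arrays with the dose comparisons, so the values are set side by side and not related to each other.

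For 5 of the genes the array carried further single-symbol probe sets, and they did not always move alike. The second Fga probe set fell more than the one used, by 0.98 at 24 h and 1.19 at 48 h on the log2 scale at 100 µM, against -0.39 and -0.57. For Masp2, a second probe set had log2 fold changes of -1.01 and -1.20 and the dimmest one of -0.05 and 0.04, against -0.35 and -0.47. The other Mbl2 probe set had -0.13 and -0.12, and was not called, where the one used fell. Of the 2 other Masp1 probe sets, 1 had -0.64 and -0.82 and was called at both times. The dimmest, with a mean signal of 31, had -0.58 and -0.95 and was not called. The 2 dim probe sets of Fgb were not called. The names of Fga, Hrg, Serpind1 and Masp2 probe sets carry a suffix for probes that match several transcripts of a gene.

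**Figure D4:**
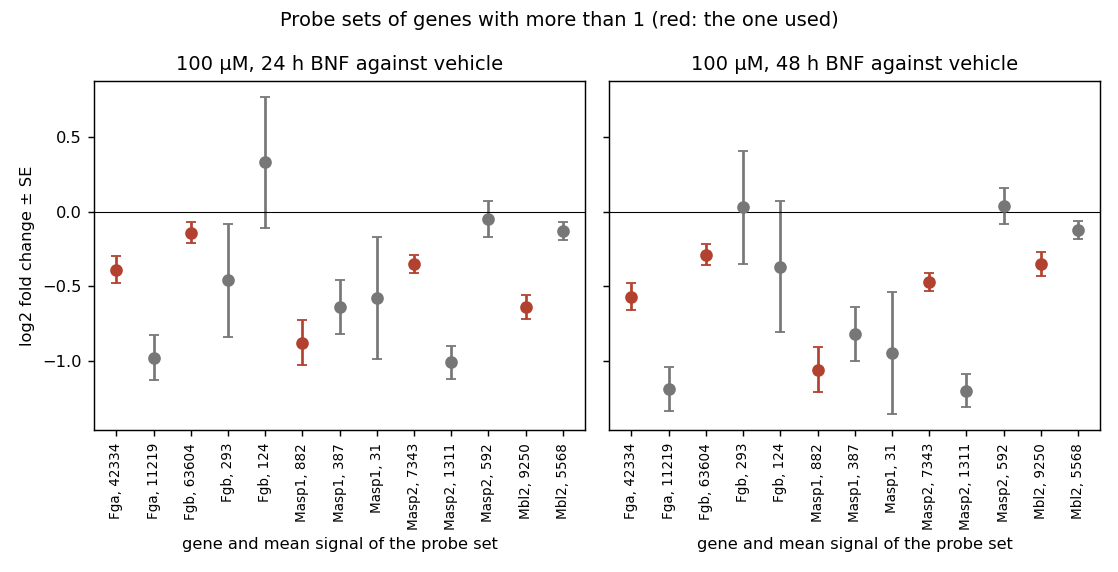
Log2 fold change with its SE (vertical axis) at 100 µM against vehicle, at 24 h (left) and 48 h (right), for each single-symbol probe set of the 5 genes with more than 1; the horizontal axis gives the gene and the mean signal of the probe set, and red marks the one used. The second probe sets of Fga and Masp2 lie near -1, below the ones used, and the dimmest of Masp2 lies at 0.04 or -0.05.

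Genes of the same pathways outside the 28 were counted in lists. Of 27 other coagulation and fibrinolysis genes measured (29 listed), 10 fell and 3 rose at 100 µM and 24 h, and 10 fell and 1 rose at 48 h. At 24 h that was 37% lower and 11.1% higher, against 10.4% and 10.7% of all genes. At 48 h it was 37% and 3.7%, against 8.62% and 8.79%. The list's median log2 fold change was -0.02 and -0.17, beside 0.04 and 0.02 for all genes. Vkorc1, the enzyme that recycles vitamin K for F2, F9, F10 and Proc, fell at 24 h from 9110.1 ± 397 to 6499 ± 537 (n = 5; log2 fold change -0.49, SE 0.06, adjusted p = 6.58e-07) and at 48 h (-0.45, adjusted p = 2.52e-06). At 1 µM and 24 h Vkorc1 and Ggcx, the carboxylase that uses vitamin K, fell (-0.28 and -0.21, adjusted p = 0.00734 and 0.0354), and Serpine2 rose (0.57, 0.00265). Plat, tissue plasminogen activator, fell from 701 ± 37.5 to 340.1 ± 89.1 at 24 h and from 883 ± 158 to 339.5 ± 54.4 at 48 h (adjusted p = 2.14e-06 and 2.74e-08). Serpina10, the protein Z dependent inhibitor of F10, fell by 0.41 and 0.55 on the log2 scale (adjusted p = 4.58e-06 and 2.8e-08), Tgm2 by 0.41 at 24 h (1.92e-05) and A2m by 0.68 at 48 h (2.95e-05). The 3 that rose at 24 h, named after their values were seen, were Thbd (1.18), Serpine2 (0.41) and Pros1 (0.16), and Thbd, thrombomodulin, rose at 48 h (0.64). At 1 µM and 48 h none passed (0 in limma, 6 at an unadjusted p of 0.05).

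Of 20 other complement genes measured (27 listed), 4 fell and 1 rose at 100 µM and 24 h, and 3 fell and 3 rose at 48 h. The medians were -0.04 and -0.06. At 24 h that was 20% lower and 5% higher, against 10.4% and 10.7% of all genes. At 48 h it was 15% each way, against 8.62% and 8.79%. Vtn, vitronectin, which blocks the pore, fell at both times (-0.50 and -0.80, adjusted p = 7.92e-05 and 3.47e-08), as did C8g, another chain of C8 (-0.24 and -0.40, 0.0094 and 2.96e-05). C1s, a protease of the antibody route, fell at 24 h (-0.39, 0.00706). Cd55, a membrane protein that shields the cell's own surface from complement, rose from 631 ± 39.8 to 1029.6 ± 116 at 24 h and from 1156 ± 281 to 2198 ± 399.5 at 48 h (adjusted p = 0.000227 and 4.23e-06). Colec12 rose at 48 h (1.39, 0.00965) from a low signal of 42 ± 18.1, and C1r rose at 48 h at both doses (0.33 at 1 µM, 0.0281; 0.25 at 100 µM, 0.0207, the latter named after its value was seen). At 1 µM and 24 h none passed (0 in limma, 6 at an unadjusted p of 0.05).

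Among 15 regulators of these genes in liver, transcription factors, cytokine receptors and Socs3, an inhibitor of cytokine signalling (15 listed), 9 fell and 1 rose at 100 µM and 24 h, and 8 fell and 2 rose at 48 h, with medians of -0.39 and -0.33. Over all genes at 100 µM, 10.4% were called lower and 10.7% higher at 24 h, and 8.62% and 8.79% at 48 h. At 1 µM and 24 h 4 fell (2.4% of all genes called lower), and at 48 h none passed (0 in limma, 4 at an unadjusted p of 0.05). Hnf4a, the nuclear receptor that controls many clotting factor genes, went from 9647 ± 657 to 7374 ± 422 at 24 h (log2 fold change -0.39, SE 0.06, adjusted p = 1.22e-05), and from 7611 ± 619 to 6529 ± 603 at 48 h (adjusted p = 0.00829). Il6st, the signalling chain of the interleukin 6 receptor, fell at both times (-0.45 and -0.39, adjusted p = 2.45e-06 and 2.29e-05), and Nr1h4, the bile acid receptor that drives fibrinogen genes, fell at 24 h (-0.60, 1.27e-05). Cebpd, a factor of the acute phase, fell from 1971 ± 243 to 912 ± 55.4 at 48 h (log2 fold change -1.10, SE 0.09, adjusted p = 1.21e-10). Cebpa rose then (0.36, 0.000113), Nr3c1, the glucocorticoid receptor, fell (-0.37, 0.00029), and Il1r1, the interleukin 1 receptor, rose at 24 h (0.53, 6.86e-06). At 1 µM and 24 h the 4 were Il6st (-0.27), Hnf4a (-0.22), Foxa3 (-0.39) and Il6r (-0.34), with adjusted p from 0.00982 to 0.0401. The part of these factors in the result was not tested.

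The cells carried hepatocyte markers throughout. The summed signal of 10 measured hepatocyte markers was 469746 to 541944 over the vehicle arrays at 24 h and 426167 to 548223 at 100 µM, and 409845 to 494762 and 326489 to 409634 at 48 h. At 100 µM 3 of the 10 fell at 24 h (Tat -0.50, Hnf4a -0.39, Cps1 -0.45), and 4 at 48 h (Cps1 -1.08, Tat -0.72, Serpina1 -0.32, Hnf4a -0.22). Over all genes, 10.4% and 8.62% were called lower at these times. Alb, albumin, had 0.00 and -0.08 (95% intervals -0.19 to 0.19 and -0.27 to 0.11). The sum of 12 Kupffer cell markers, of which 6 lie below the median gene, was 23459.8 to 27619 in vehicle and 26828 to 30598 at 100 µM at 24 h, and 19475 to 21819 and 16247 to 17395 at 48 h. Cd14 rose at 24 h (0.24) and fell at 48 h (-0.24), and Lyz2 fell at 48 h (-0.62). Of 11 stellate cell markers, 10 lie below the median gene and Lox alone fell (-1.32 and -1.30). Their sum was 6388 to 9714 and 5119 to 6159 at 24 h, and 3222 to 5403 and 3480.2 to 4607 at 48 h. All 8 endothelial markers lie below the median gene, and their sums overlapped (1569 to 2369.8 and 1856 to 2724 at 24 h, 1140.4 to 1864 and 1016 to 1935 at 48 h), with Stab2 lower at 48 h (-1.60). Of 4 cholangiocyte markers, 3 below the median gene, Epcam fell at 48 h (-0.36), and the sums were 10086 to 11417 and 10075 to 11098 at 24 h, and 11286 to 13007 and 8882 to 9709 at 48 h. All 5 lymphocyte and 4 platelet markers lie below the median gene, with sums from 702 to 1594 and from 659 to 1344 over all arrays, and at 100 µM none was called (0 in limma; 1 lymphocyte marker at 24 h and 0 of the rest at an unadjusted p of 0.05). The sums add linear signals, so the brightest markers weigh most in them. In vehicle at 24 h the mean was 10687 for Epcam, 5233 for Lox and 13722 for Cd14. The part of these cell types in the falls of coagulation and complement genes was not tested.

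Array medians lay between 336.5 and 427.9 and no 2 arrays were identical (0 pairs). The median SD of the 28 genes within a group was 0.109 to 0.154 log2 units, against 0.192 to 0.206 for all genes, and 5 arrays a group limit the precision. Some arrays were high or low for many of the 28 at once. Replicate 5 of vehicle at 48 h was the highest of its 5 arrays for 18 genes, and replicate 2 the lowest for 18. Replicate 2 of 1 µM at 48 h was the highest for 18, replicate 4 of 1 µM at 24 h the lowest for 18 and replicate 4 of 100 µM at 24 h the lowest for 17. Leaving out any one array left 19 to 22 of the 28 called at 100 µM and 24 h and 20 to 23 at 48 h, all lower.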

How the data were processed

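The 30 arrays, Affymetrix rat expression arrays, were deposited as 1 linear intensity for each probe set. The submitters' processing notes name MAS5, and its version is not given in the sources used here. Their intensity values have a mean of 1500.54 to 1500.6 after trimming 2% at each end, so the deposited arrays share a scale, and a change of most genes at once would not be seen. Replicate numbers only name an array, and nothing in the labels ties arrays to animals. Of 31099 probe sets, 57 control sets were left out, 20826 had 1 symbol, 436 several and 9780 none, which gave 14217 genes (14167 matched RefSeq gene IDs).

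Log2 signals of all genes were fitted with limma 3.58.1 (lmFit, eBayes with a mean-variance trend) in R 4.3.3, with 1 mean per group and 24 residual degrees of freedom. Every adjusted p in the text is limma's, with Benjamini-Hochberg adjustment over all 14217 genes, and a gene was called at 0.05. Intervals are 95% of the fit. The code was tested on simulated data. A rule was used for the choice of genes given array by array: a called change from vehicle of at least 0.8 on the log2 scale, plus the pair in each role with the largest changes at 100 µM. From other lists, up to 4 genes per comparison with the smallest adjusted p were named. The members and lists were chosen with earlier results of these data known. Promoters are RefSeq's on GRCr8. Alternatives were quantile normalization, arrays centred on their medians, only the groups compared, dim genes left out, 100 added to every signal, the mean over a gene's probe sets, no trend, each array left out and, chosen after seeing the data, runs of serial numbers as a block. One planned item is not reported here.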

Additional observations from a re-analysis of the deposited data

Results flagged for a closer look

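A single array stood apart from the other 4 of its group, by Dixon's test at its 95% critical value, in 11 of 168 groups tested (6.55%), and that test marks about 5% of groups by chance. Klkb1 was 33 on replicate 1 of 1 µM at 48 h (the others 356 to 576) and 51.5 on replicate 2 of 100 µM at 48 h (251 to 279). Replicate 2 of vehicle at 48 h stood low for Proc, at 4628 (5851 to 6407), and for C6, at 402 (553 to 608). Fga was 58737 on replicate 5 of vehicle at 24 h (50041 to 52170.4), and Fgg 54406 on replicate 1 of 100 µM at 48 h (66880.2 to 71835). C8a was 2894 on replicate 4 of 1 µM at 24 h (3333 to 3526) and 2836 on replicate 1 of 100 µM at 24 h (2247 to 2393). Masp1 was 459 on replicate 3 of 100 µM at 24 h (659.6 to 705), Mbl2 9810.4 on replicate 1 of 1 µM at 24 h (8416 to 8729), and F5 5243 on replicate 3 of 1 µM at 48 h (4471 to 4669).

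The effect of 100 µM differed between 24 and 48 h for F9, by -0.39 on the log2 scale (95% interval -0.56 to -0.22, adjusted p = 0.0154), and for C4bpa, by -0.57 (-0.82 to -0.32, adjusted p = 0.0148), in limma's test of the difference. Both were further below vehicle at 48 h.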

How the results depend on the processing

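The counts at 100 µM against vehicle kept within 1.5 times under all alternatives run. With 1 array left out, the members called were 3 to 7 at 1 µM and 24 h, 19 to 22 at 100 µM and 24 h, 1 to 4 at 1 µM and 48 h, 20 to 23 at 100 µM and 48 h, 6 to 10 and 14 to 20 between the doses at 24 and 48 h, 16 to 21 in vehicle over time, 0 for the 1 µM effect between times (7 at an unadjusted p of 0.05 in limma with all arrays) and 2 for the 100 µM effect. With each array centred on its median, the count at 1 µM and 48 h was 1 (2 before), between the doses 5 at 24 h (10 before) and 10 at 48 h (20 before), and for the 100 µM effect between times 0 (2 before). With only the groups compared, the count at 1 µM and 48 h was 0. No member with a call reversed direction. Centring lost 26 of the members' calls over all comparisons and kept 79. The labels number the arrays in 5 runs of 6, each with 1 array of every group, and do not say what a run shares. In a fit with the run as a replicate block, chosen after seeing the data (20 residual degrees of freedom), 7 members were called at 1 µM and 21 at 100 µM at 24 h, 2 and 21 at 48 h, 11 and 20 between the doses, 20 in vehicle over time, and 0 and 2 for the 1 µM and 100 µM effects between times. It lost the calls of Klkb1 at 100 µM and 48 h (adjusted p = 0.0549) and Masp2 in vehicle over time (0.0507) and added F9 between the doses at 24 h (0.0317). Between arrays of a run, the correlation of their deviations from the group means had a median of 0.01 over 75 pairs, 1 of them over 0.1. Between arrays of different runs the median was 0 over 300 pairs, 1 of them over 0.1. Of 30 arrays, 9 were closest to their own run, a count for which no chance level was worked out. A deviation shared within a run was not tested.

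Over all genes, centring moved the calls from 612 to 395 at 1 µM and 24 h, from 115 to 66 at 1 µM and 48 h (30 with only the groups compared), from 1097 to 612 between the doses at 24 h, from 2450 to 1633 in vehicle over time and from 112 to 47 for the 100 µM effect between times (174 with dim genes left out). For the 1 µM effect between times, 13 genes became 20 with quantile normalization, 0 with centring, 1 with the mean over probe sets, 4 with no trend and 5 with only the groups compared. The share of calls that were higher moved from 44.3 to 12.9% at 1 µM and 24 h (31.1% with only the groups compared), from 50.8 to 30.4% at 100 µM and 24 h, from 35.7 to 12.1% at 1 µM and 48 h, from 47.1 to 76.2% between the doses at 48 h and from 48.2 to 61.7% for the 100 µM effect between times. The cause was not tested. Centring moved the median of all genes between the doses at 48 h from -0.02 to 0.09, and that of the members from -0.31 to -0.20. The 5 arrays a group limit the precision, and 4 of the members lie below the median signal of all genes.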
